A study of Mus musculus with 2 samples.

Results

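The genes Atf3, Atf4, Atf5, Jdp2 and Nupr1 encode stress-induced transcription factors of the ATF group and a close nuclear partner of that group. They were taken by name, as 5 of the 21866 protein-coding genes with an annotated start site, and their binding by CHOP in mouse liver was read from a list of 14157 CHOP peaks. Peaks whose summit was at most 1 kb away from a start site of a gene were counted as its promoter peaks. Summits beyond that and up to 50 kb away were counted as distal peaks of the gene whose protein-coding start site was nearest. By these criteria the 5 genes held 13 peaks, of which 5 were promoter peaks and 8 were distal peaks.

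The data are chromatin immunoprecipitation sequencing (ChIP-seq) of CHOP, the product of Ddit3, in livers of wild-type (WT) mice that had received 1 mg/kg tunicamycin by intraperitoneal injection. Livers were taken at 8 h, chromatin of 3 mice was pooled, and it gave 1 immunoprecipitated library, beside 1 input library from tunicamycin-treated WT liver. Tunicamycin blocks N-linked glycosylation and so causes stress of the endoplasmic reticulum. Both libraries are stressed WT liver with all its cell types, and no untreated or CHOP-deficient library was analysed here, so the peaks give occupancy in that state and neither a change nor the spread between animals.

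CHOP and the ATF factors act in the integrated stress response. Phosphorylation of the initiation factor eIF2α lowers general translation while the mRNAs of ATF4 and ATF5 are translated more, through upstream open reading frames in their leaders. ATF4 then activates Ddit3, Atf3, Nupr1 and genes of amino acid supply, and CHOP, which binds DNA poorly as a homodimer, pairs with ATF4 or with C/EBP proteins on composite C/EBP-ATF elements.

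Every one of the 5 genes had a promoter peak, against 27.9% of all protein-coding genes. The genes were chosen with earlier results of these data known, so this count is a description. The promoter peaks of the 5 genes differed in strength. For each peak the authors gave a fold enrichment, a ratio of the reads stacked at its summit to the local background, each with 1 added. The intervals given with a fold are exact 95% Poisson intervals on that read stack with the background held fixed. They cover counting error only, as summits are maxima by definition and no molecular identifiers are described for the reads. Atf3 had 23.8-fold enrichment (interval 16.5 to 33.3). Jdp2 followed with 14.7-fold (10.3 to 20.3) and Atf5 with 10.4-fold (6.60 to 15.6). Nupr1 had 8.25-fold (4.35 to 14.5) and Atf4 had 6.85-fold (3.95 to 11.2). The interval of Atf3 lay above those of Atf5, Nupr1 and Atf4 and overlapped that of Jdp2, and each neighbouring pair in this order overlapped. The median over the 5 genes was 10.4-fold, beside 6.86-fold over all 6100 genes with a promoter peak.

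The order of the raw summit reads was not that of the folds. Jdp2 had 34 reads at its summit and Atf3 had 32, followed by Atf5 with 21, Atf4 with 14 and Nupr1 with 10. The local background was 1.39 reads at Jdp2, 1.19 at Atf4 and 1.12 at Atf5. It was 0.386 at Atf3 and 0.333, the genome-wide floor of the list, at Nupr1. Jdp2 and Atf3 thus had nearly the same number of reads over different backgrounds, and Nupr1 had fewer reads than Atf4 with a higher fold.

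**Figure D1:**
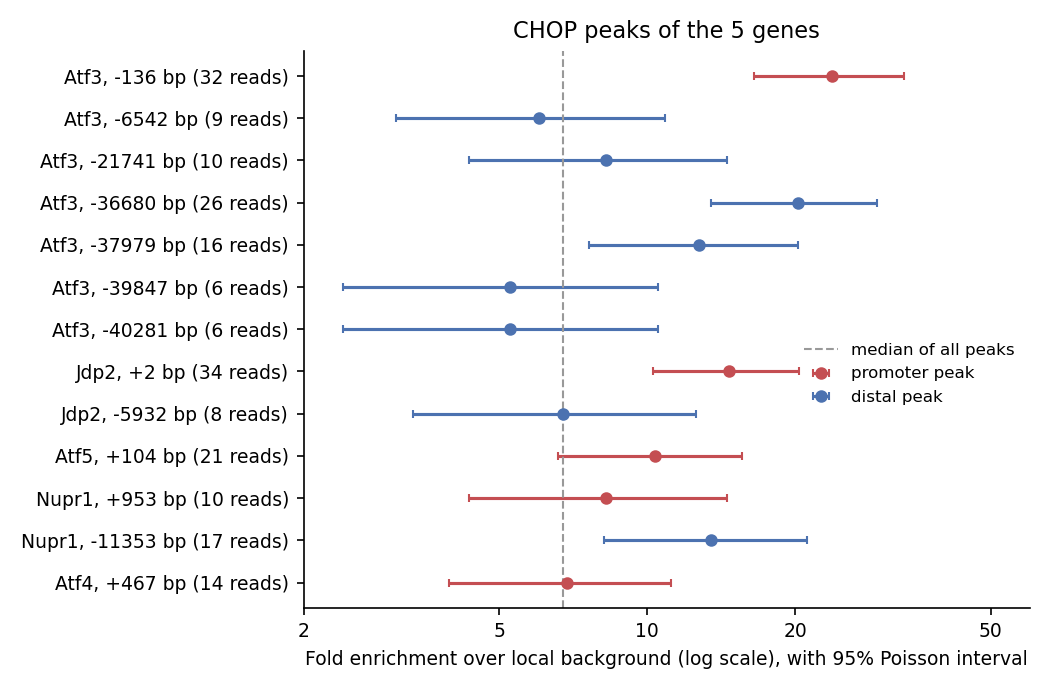
The points are the fold enrichments of the 13 CHOP peaks of Atf3, Jdp2, Atf5, Nupr1 and Atf4 on a log axis, with 95% Poisson intervals, promoter peaks in red and distal peaks in blue, and each row gives the distance of the summit from a start site and the reads at the summit. The Atf3 promoter peak (23.8-fold) and the Atf3 peak at -36680 bp (20.2-fold) stand furthest to the right of the dashed median of all peaks (6.75-fold), and the intervals of 8 of the 13 peaks cross that line.

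Atf4 encodes the activator at the centre of the integrated stress response. Its single peak, at chr15:80255566-80255867 (302 bp, mm10), peaked at +467 bp, in the 5′ UTR. Positive offsets are downstream of the start site throughout and negative offsets are upstream. Among all annotated transcripts the nearest start site was also of Atf4, and it put the summit at +129 bp. The −log10 q that the authors gave this peak was 8.08. Its fold was higher than that of 49.7% of genes with a promoter peak, so that among bound promoters Atf4 was close to the middle. No other peak was assigned to Atf4, and the nearest protein-coding start sites of other genes on either side were those of Rps19bp1 (at 9131 bp) and AC140267.1 (at -19349 bp). None of the 11 motifs searched occurred within 50 bp of the summit, and in the rest of the peak the search found only 2 GC boxes.

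Atf5 encodes an activator that is controlled in translation like ATF4, is abundant in liver, and is known from the mitochondrial unfolded protein response. Its promoter peak, at chr7:44816210-44816937 (728 bp), had a summit at +104 bp and a −log10 q of 16.7, and its fold was above that of 78.3% of genes with a promoter peak. The peak cannot be assigned to Atf5 alone. Nup62, a nuclear pore component, and Il4i1, an L-amino acid oxidase, start from the opposite strand within the same stretch, the summit lay in the 5′ UTR of all 3 genes, and the nearest start site was that of Il4i1, at 74 bp. A stronger peak stood upstream, at chr7:44818734-44819401, with 42.7-fold enrichment (32.5 to 55.3, 56 reads). It lay -2391 bp from the outermost Atf5 start site and 612 bp downstream of an inner Nup62 start site, in introns of Nup62 and Il4i1. By the 1 kb limit it therefore belongs to Nup62 and not to Atf5. With a promoter limit of 3 kb it would be the highest Atf5 peak. Of the 11 motifs, only a GC box lay within 50 bp of the Atf5 summit, and none lay that close to the stronger summit next to it.

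Atf3 encodes a factor that as a homodimer represses its targets and is itself induced by ATF4 and many other stresses. Its gene runs over chr1:191170296-191218039 on the minus strand and has 2 protein-coding start sites 34699 bp apart. CHOP was at the inner one. The peak at chr1:191182811-191183751 (941 bp, −log10 q 46.4) peaked at -136 bp relative to the inner site, in an intron of the longer transcript. The outer start site had no summit within 1 kb, and the closest, at -6542 bp, had 6.02-fold enrichment. Among genes with a promoter peak Atf3 ranked 203, above 96.7% of them. The 101 bp around the summit are shown because they hold an exact C/EBP-ATF composite, and so are 30 bp of the 5′ UTR that hold another. Both are written 5′ to 3′ on the gene's strand from GRCm38.p6, the mm10 build, with the composite in capitals. The stretches are chr1:191183426-191183526 and chr1:191183255-191183284.
Atf3 promoter, around the summit at -136 bp: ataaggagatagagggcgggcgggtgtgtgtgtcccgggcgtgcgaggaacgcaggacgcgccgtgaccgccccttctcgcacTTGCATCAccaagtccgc
Atf3 5′ UTR, from the same peak: tttaaaaggggTGATGCAAcgcgctcccag
In the upper sequence the composite reads TGATGCAA on the opposite strand, with its centre 36.5 bp downstream of the summit and its near end at -96 bp from the start site. The lower one reads TGATGCAA on the gene's own strand, begins at +67 bp in the 5′ UTR and is 206.5 bp from the summit. The upper window also holds 3 GC boxes, GGGCGG.

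Atf3 also had 6 distal peaks, all upstream of the outer start site. They count through that outer site, which had no promoter peak. Measured from the inner site, which had the promoter peak, all but the summit at -6542 bp lie beyond the 50 kb limit. At least 1 distal peak was found for 18.0% of all protein-coding genes and 6 or more for 0.0686%, which is 15 genes. Those with more were Bcor and Rora (9 each), Irf2bp2 and Rere (8 each), and Cdk17, St3gal3 and Tns1 (7 each), named here after their values were seen. Of the 15 genes, Atf3 had the highest promoter fold, ahead of Rora with 19.2-fold. The stretch in which Atf3 has the nearest coding start site, within the 50 kb limit, was 90.0 kb long, larger than that of 81.3% of genes, and held 6.67 distal peaks per 100 kb. Over all genes the density was 0.455 per 100 kb.

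The distal Atf3 peaks were uneven. The highest, at chr1:191254490-191254880 and -36680 bp, had 20.2-fold enrichment (13.5 to 29.3, 26 reads), close to the promoter peak. The next, at -37979 bp, had 12.7-fold (7.61 to 20.2, 16 reads). A weaker pair, each of 5.25-fold (2.40 to 10.5, 6 reads), followed at -39847 and -40281 bp, so that 4 summits lay within 3601 bp. The peak at -21741 bp had 8.25-fold (4.35 to 14.5, 10 reads) and the one at -6542 bp had 6.02-fold (3.08 to 10.9, 9 reads). The weakest pair lay below the median of all distal peaks, 6.75-fold, as did the peak at -6542 bp. Just past the 50 kb limit, at -59745 bp, stood a further peak of 28.5-fold (20.3 to 39.0, 37 reads), which is nearer to the start site of Nenf, at 40410 bp. If every annotated gene, and not only protein-coding genes, may claim a peak, none of the 6 stays with Atf3: the nearest models are then D730003I15Rik, a long non-coding RNA whose start is 107 bp from the summit at -6542 bp, and Gm37074 and Gm37168.

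The 2 strongest distal sites of Atf3 are shown because they carry the only C/EBP-type matches among its distal summits. Capitals mark a C/EBP-ATF composite in the upper sequence, chr1:191254669-191254769, and the CHOP core hexamer in the lower, chr1:191255968-191256068. Both are on the minus strand of GRCm38.p6.
Atf3 distal, -36680 bp: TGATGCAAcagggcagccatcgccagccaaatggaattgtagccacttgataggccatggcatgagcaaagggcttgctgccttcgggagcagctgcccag
Atf3 distal, -37979 bp: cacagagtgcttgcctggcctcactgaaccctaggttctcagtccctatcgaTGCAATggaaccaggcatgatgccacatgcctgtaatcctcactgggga
The composite at -36680 bp is the exact TGATGCAA, at the edge of the window and -46.5 bp from the summit. The hexamer TGCAAT at -37979 bp is 4.5 bp from its summit, and 51 of the 101 bases there are marked as repeat sequence. The peak at -6542 bp differed from these: its window was 71.3% G and C, and an E-box, CACGTG, lay -3.5 bp from the summit, with 3 more in the same peak. Neither of the weakest pair had a composite or a hexamer in the peak. Their windows also hold bases marked as repeat sequence, 30 of 101 at -39847 bp and 46 of 101 at -40281 bp. The windows at -6542, -21741 and -36680 bp hold none.

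Jdp2 encodes the factor closest to ATF3 in sequence, which pairs with JUN proteins and represses AP-1 sites. Its promoter peak, at chr12:85599119-85599577 (459 bp, −log10 q 31.5), peaked at +2 bp relative to an inner start site of Jdp2, the closest of the 5 promoter summits to a start site. Over all promoter peaks the median distance was 120 bp. The Jdp2 fold was above that of 89.9% of genes with a promoter peak. A distal peak, at chr12:85593055-85593227 and -5932 bp, had 6.75-fold (3.34 to 12.6, 8 reads). Beyond the 50 kb limit, at -52336 bp, a peak of 8.999-fold (4.87 to 15.5, 11 reads) had Jdp2 as its nearest coding gene too. The stretch in which Jdp2 has the nearest coding start site was about as long as that of Atf3, 90.4 kb, and held this 1 distal peak.

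Both Jdp2 peaks hold a composite within 50 bp of the summit, which is why they are shown, on the plus strand of GRCm38.p6 with the composite in capitals. The stretches are chr12:85599345-85599415, which ends at the base before that start site, and chr12:85593045-85593145.
Jdp2 promoter, up to the start site: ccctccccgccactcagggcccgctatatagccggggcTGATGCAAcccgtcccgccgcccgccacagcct
Jdp2 distal, -5932 bp: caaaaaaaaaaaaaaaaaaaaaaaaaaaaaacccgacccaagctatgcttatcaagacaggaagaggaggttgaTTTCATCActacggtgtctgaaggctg
At the promoter the composite is the exact TGATGCAA, on the gene's strand at -26 bp from the start site. At the distal peak it reads TGATGAAA on the opposite strand, 27.5 bp from the summit. The distal window starts in a run of A. Of the 170 overlapping 32-base words within 100 bp of that summit 143 occur once in the genome, and the most frequent occurs 1956 times. In the windows of the other 12 peaks all 170 words were unique. The part of this repeat in the read count was not tested.

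Nupr1 encodes a small disordered chromatin protein, also called p8, that has no bZIP domain and works through partners. Its promoter peak, at chr7:126624617-126624862 (246 bp, −log10 q 9.51), lay at +953 bp in an intron, close to the 1 kb limit. Its fold was above that of 65.2% of genes with a promoter peak, and its −log10 q above that of 57.2%. A distal peak at chr7:126636867-126637148 and -11353 bp was higher in fold than the promoter peak, with 13.5-fold (8.18 to 21.2, 17 reads), though the 2 intervals overlap. Among all annotated transcripts the nearest start sites to both summits were also of Nupr1. They put the promoter summit at +621 bp and the distal summit at -6168 bp. Nupr1 was also set apart by the base composition of its start site. Within 500 bp of it, the ratio of observed to expected CpG was 0.127 and the GC share 53.3%, whereas the other 4 genes had ratios of 0.756 to 0.995 and GC shares of 60.2% to 74.6%. The promoter window, chr7:126624673-126624773 on the minus strand of GRCm38.p6, is shown for its composite, in capitals.
Nupr1 intron, around the summit at +953 bp: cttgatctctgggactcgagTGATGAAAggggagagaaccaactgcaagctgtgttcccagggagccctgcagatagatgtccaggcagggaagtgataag
This composite reads TGATGAAA on the gene's strand, -26.5 bp from the summit. A further variant, TGATGGAA, lies in the same peak at 78.5 bp. At the distal Nupr1 peak a CHOP core hexamer has its centre 49.5 bp from the summit and crosses the edge of the window.

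The locus map sets these peaks beside those of neighbouring genes. Atf3, Jdp2 and Nupr1 had a promoter and a distal peak, as 7.71% of all protein-coding genes had, while Atf4 and Atf5 had a promoter peak only. The stretch in which a distal peak could count was 12.2 kb for Atf4 and 31.3 kb for Atf5, below the median of 43.6 kb. For Nupr1, which had a distal peak, it was 25.2 kb. Whether these lengths bear on the distal counts was not tested. Around Atf5 the peak shared by Akt1s1 and Tbc1d17, at -33317 bp, had 24.1-fold enrichment (17.3 to 32.7, 39 reads).

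**Figure D2:**
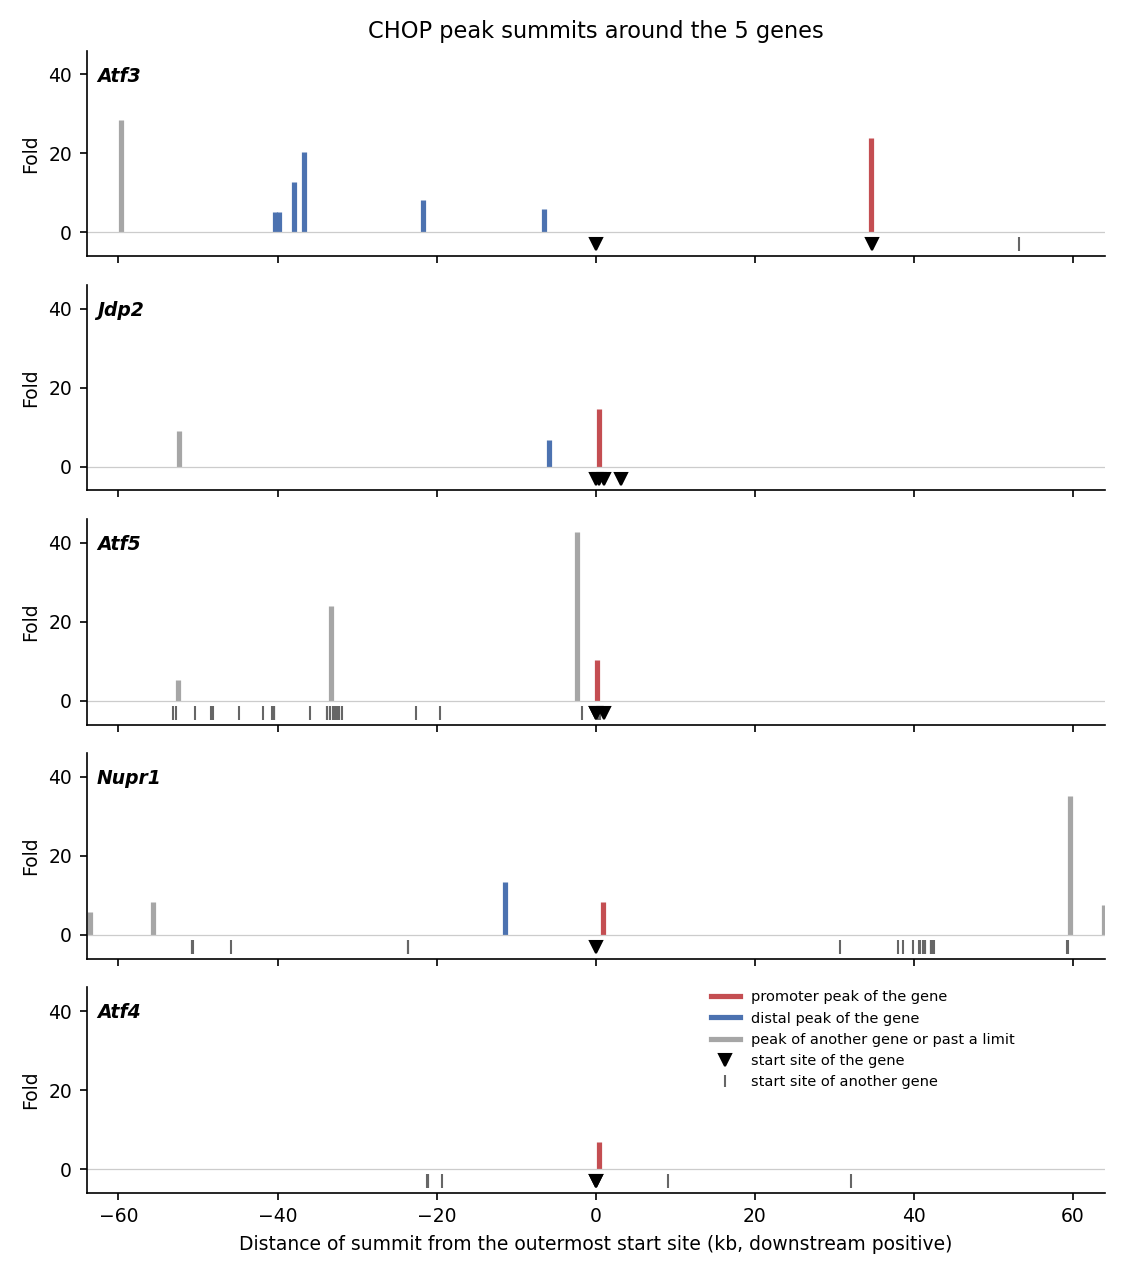
Each bar is a CHOP peak summit around the 5 genes, placed by its distance in kb from the outermost start site and with its fold as height; red and blue bars are promoter and distal peaks of the gene and grey bars belong to other genes or lie past the limits. Atf3 has its promoter peak at the inner start site and 4 of its 6 distal summits close together, Atf4 has 1 peak, and the tallest grey bar is the 42.7-fold Nup62 peak beside Atf5.

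Sequence matches were counted over all 13 peaks, within 50 bp of the summit on either strand, for 11 motifs. The C/EBP-ATF composite was searched as TGATGNAA. It occurred at 5 of the 13 summits: 3 of the 5 promoter summits (Atf3, Jdp2 and Nupr1) and 2 of the 8 distal summits (Atf3 at -36680 bp and Jdp2 at -5932 bp). Over the list, 6.28% of 14156 summit windows held it, 1.89% of promoter windows and 10.3% of distal windows, beside 1.44% of windows 500 bp away. The exact form TGATGCAA was at 3 of the 13 summits, those of the Atf3 promoter, the Jdp2 promoter and Atf3 at -36680 bp, against 2.99% of all summits and 53 of 6306 promoter summits (0.841%). None of the 5 matches lay within 25 bp of its summit, where 3.66% of all summits had one.

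The other C/EBP and CRE forms were at few of the 13 summits. The CHOP core TGCAAT was at 1 summit (9.12% of all summits). The C/EBP palindrome TTGCGCAA (0.134%), the looser C/EBP form TTGCNNAA (4.44%), the CRE palindrome TGACGTCA (0.516%) and the short CRE core TGACG (8.81%) were at none. Each palindrome also matches the shorter form of its kind, so those counts overlap. The AP-1 site TGANTCA, to which JDP2 and JUN dimers bind, was at none within 50 bp (2.68% of all summits) and within 100 bp at Atf3 -21741 bp and Jdp2 -5932 bp (5.53%). The GC box GGGCGG was at 3 summits, the promoters of Atf3, Atf5 and Jdp2, where 45.4% of all promoter summits had it. The E-box CACGTG and the CCAAT box were at 1 summit each (3.37% and 9.17% of all), and the antioxidant element core TGACNNNGC at none (4.45%). Other counts rose within 100 bp as well. The E-box was then at 4 summits (6.27% of all), the GC box at 4 (34.8%) and the CCAAT box at 3 (18.7%). The short CRE core was at 2 (16.3%) and the CHOP core at 2 (13.5%).

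**Figure D3:**
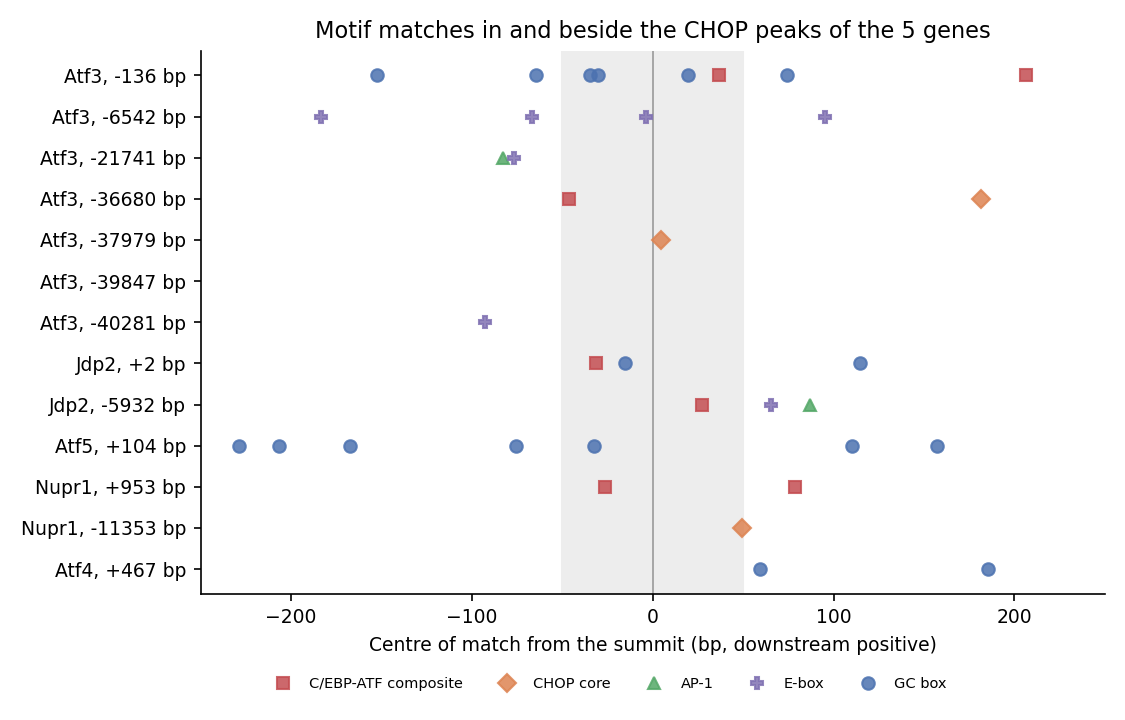
Each symbol is a motif match, placed by the distance in bp of its centre from the summit of the peak named at the left, with the 50 bp on each side shaded and 5 motif kinds shown by colour and shape. The composite (squares) lies off-centre in the shaded zone of 5 peaks, at -46.5 to 36.5 bp, and the Atf4 row has only GC boxes outside it; 1 GC box of the Atf3 promoter, at 364.5 bp, is past the axis, and the E-box of the row Atf3 -40281 bp lies outside its peak.

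Composites were then counted at the highest promoter peak of each gene. Over all genes with a promoter peak, 110 of 6100 (1.80%) had one there. Among 29 genes listed as shared targets of ATF4, ATF5 and CHOP, 22 had a promoter peak and 11 of those had the composite, among them Trib3, Gars, Vegfa and Chac1. Among 26 genes listed as bZIP partners of the ATF factors, JDP2 or CHOP, 18 had a promoter peak and 2 had the composite, Ddit3 itself and Cebpg. In the other 4 lists described next, none of 9, 10, 9 and 10 genes with a promoter peak had it. The other ATF and CREB genes are the first of these lists.

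The fold of the 5 genes was placed among all bound promoters and among 6 lists of related genes, chosen with results of these data known, so that their counts are a description. The lists hold 120 genes, and 78 of them had a promoter peak. Over all protein-coding genes the shares were 27.9% with a promoter peak and 18.0% with a distal peak.

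**Figure D4:**
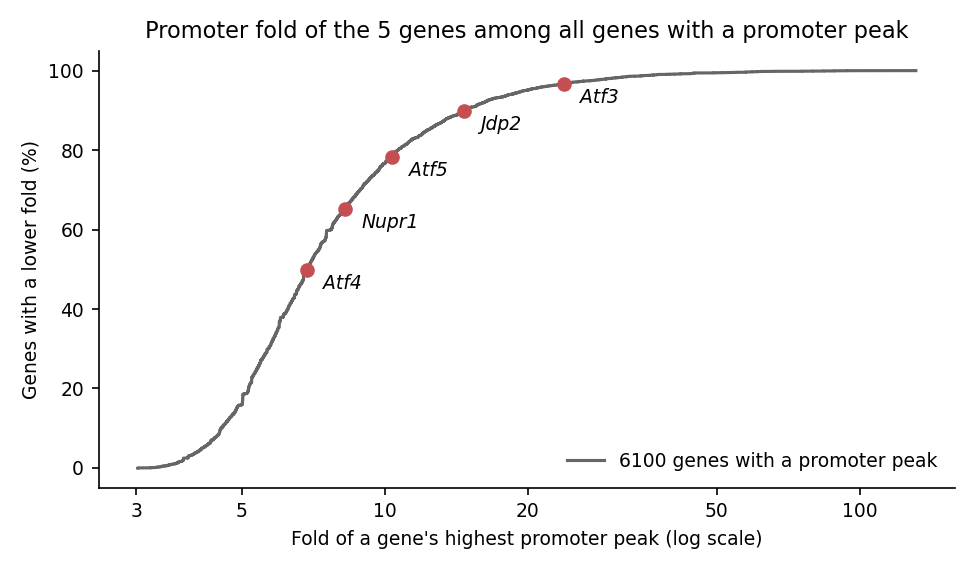
The line gives, for each fold on the log axis, the share of the 6100 genes with a promoter peak whose highest promoter fold is lower, and the 5 points mark the genes. Atf4 is at 49.7%, Nupr1 at 65.2%, Atf5 at 78.3%, Jdp2 at 89.9% and Atf3 at 96.7%. The 5 genes thus run from near the middle of the bound promoters upward, without reaching the highest fold, 131-fold.

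Of the 16 other ATF and CREB genes, 9 (56.2%) had a promoter peak, with a median of 8.01-fold. Atf6, the endoplasmic reticulum stress sensor, had 30.1-fold (22.1 to 40.1), an interval that overlaps that of Atf3, from a summit at -947 bp, near the 1 kb limit. Atf1, a close relative of CREB1, had 18.8-fold. Crem, a cAMP-responsive factor, had 10.4-fold, and Creb1, its relative, 9.91-fold. Distal peaks were found for 7 of the 16 genes (43.8%, beside 18.0% of all protein-coding genes).

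Of the 26 bZIP partner genes, 18 (69.2%) had a promoter peak, with a median of 8.34-fold, and 10 (38.5%, beside 18.0% of all genes) had a distal peak. Cebpg, whose product pairs with ATF4, had the highest promoter fold of all genes, 131-fold. Ddit3 had 60.9-fold. Nfil3, a repressor of the bZIP family, had 30.7-fold and Bach1, a haem-sensing repressor, 15.1-fold. Jun and Fos, which encode AP-1 subunits that JDP2 opposes, had distal peaks (1 and 3) and no promoter peak, and Fosl1 had neither. The other JUN and FOS genes of the list had a promoter peak. Jund had 13.5-fold, Fosb 8.25-fold, Fosl2 5.96-fold and Junb 4.84-fold.

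Of 21 genes that feed the integrated stress response, 10 (47.6%) had a promoter peak, with a median of 9.97-fold. Distal peaks were found for 4 of the 21 (19.0%), a share near the 18.0% of all genes. The genes with the highest promoter folds were Ppp1r15b with 59.1-fold and Ppp1r15a with 40.6-fold, which encode the subunits that bring a phosphatase to eIF2α. They were followed by Impact, whose product restrains the kinase GCN2, with 12.3-fold and Eif2ak3, the kinase PERK, with 10.8-fold.

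Of the 29 shared targets, 22 (75.9%) had a promoter peak, with a median of 9.62-fold, and 14 (48.3%, beside 18.0% of all genes) had a distal peak. Trib3, a pseudokinase that restrains ATF4 and CHOP, had 105.6-fold and Gars, glycyl-tRNA synthetase, 74.9-fold. Vegfa, an angiogenic growth factor, had 62.0-fold and Chac1, a glutathione-degrading enzyme, 29.9-fold. The intervals of Trib3 (90.0 to 123.2), Gars (65.6 to 85.1) and Vegfa (52.6 to 72.6) lay above that of Atf3, and that of Chac1 (21.5 to 40.6) overlapped it.

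Of 12 mitochondrial chaperone and protease genes tied to ATF5, 9 (75.0%) had a promoter peak, with a median of 9.27-fold, and 5 (41.7%, beside 18.0% of all genes) had a distal peak. Hspa9, mitochondrial HSP70, had 26.0-fold. Hspd1 and Hspe1, the HSP60 and HSP10 pair, shared 1 peak of 19.3-fold at their common promoter, and Lonp1, a matrix protease, had 10.6-fold, near the 10.4-fold of Atf5 itself. Clpp, Clpx and Htra2 had no promoter peak.

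Of 16 genes listed for cofactors and modifiers of ATF3, ATF4, JDP2 and NUPR1, 10 (62.5%) had a promoter peak, with a median of 6.32-fold. Distal peaks were found for 5 of the 16 (31.2%, beside 18.0% of all genes). Ep300, an acetyltransferase, had 11.9-fold and Irf2bp1, a ubiquitin ligase for JDP2, 9.89-fold. Crebbp, the relative of Ep300, had 6.79-fold and Trp53, which encodes p53, 6.75-fold. The median of this list was below the 6.86-fold of all bound promoters, and in the other 5 lists it was above.

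**Figure D5:**
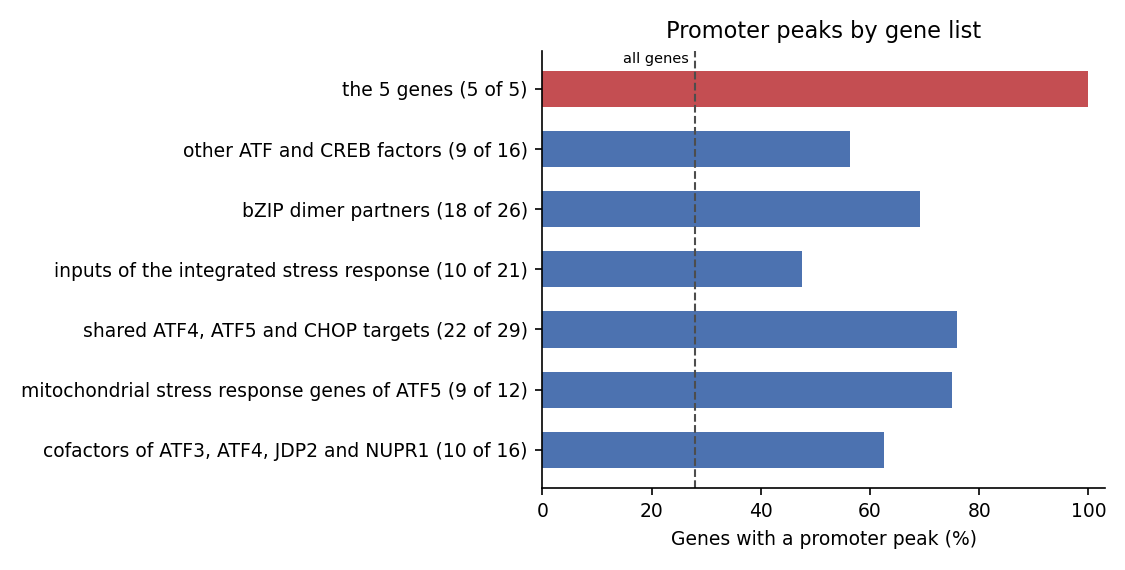
Bars give the share of genes with a promoter peak in percent, for the 5 genes (red) and 6 lists of related genes (blue), and the dashed line is the share of all protein-coding genes, 27.9%. The shares run from 47.6% for the inputs of the integrated stress response to 100% for the 5 genes, and since the genes were chosen with results of these data known, they are a description of the lists.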

How the data were processed

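CHOP ChIP-seq was made in 1 library from pooled liver chromatin of 3 mice. Per the labels' protocols, Bowtie (version not given in the sources used here) placed single-end reads on mm10 with up to 2 mismatches, and at most 2 reads were kept for each position and strand. Per the submitters' processing notes and the labels, SAMtools 1.9 and Sambamba 0.7.1 filtered alignments, MACS2 2.1.2 called peaks at default settings and ChIPseeker annotated them. The input's own signal was not analysed here, and library depth is unknown.

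The authors deposited for each peak a fold enrichment (a ratio), −log10 p and −log10 q, a score, which was not used, and the offset of the summit. The values describe and rank peaks within this list. The whole-number read stack and background were solved from the fold and −log10 p for all 14157 peaks (largest residual 3.13e-05 in −log10 p). Stacks had a median of 11 reads (4 to 329), and 6 to 34 in the 13 peaks of the 5 genes. With 1 library there is no replicate, and no test or p-value is given.

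Start sites are those of protein-coding transcripts in GENCODE M21, on GRCm38.p6 sequence. A peak counted as a promoter peak for every gene within 1 kb. Motif matches were counted in 101 bp windows, and windows 500 bp away served as background. The territory of a gene is the bases over 1 kb and up to 50 kb from a start site that is its own and the nearest. The 120 listed genes all matched an annotated gene. The code was tested on simulated peaks. Scripts ran in Python 3.11.15 with pysam 0.24.0, numpy 2.4.6, scipy 1.17.1, pandas 2.3.3 and matplotlib 3.10.9.

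The 5 genes, the lists and the motifs were chosen with earlier results of these data known. Named genes are the 5 genes, up to 4 genes per list with the highest promoter fold, genes of a list without a promoter peak where 5 or fewer, and genes that share a peak of the 5 genes or start within 10 kb of a distal summit. The other neighbours in the locus descriptions, and the JUN and FOS genes, were named after their values were seen.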

Additional observations from a re-analysis of the deposited data

How the results depend on the processing

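The count of the 5 genes with a promoter peak was 4 or 5. Nupr1 was lost with a 500 bp limit, where 25.8% of all genes had a promoter peak. Atf3 was lost with the outermost start site only (25.5%), and Atf5 when a peak counted for its nearest start site only (25.5%). The share of all genes was 27.9% in the main count and ran from 21.0% to 30.3% over the settings. The median promoter fold of 10.4 went to 12.5 at 500 bp (4 genes) and 14.7 at 3 kb, where Atf5 took the 42.7-fold peak, and its Poisson limits were 6.60 and 15.6. Genes with a distal peak numbered 2 when all annotated genes could claim a peak (13.0% of all genes). They numbered 3 at the other settings (13.3% to 20.4%). Atf3 had 6 distal peaks with limits of 50 or 100 kb, 4 with −log10 q of at least 5, 1 with a limit of 20 kb and 0 when all annotated genes could claim a peak. At least as many were found for 0.0686% of all genes at 50 kb and 0.123% at 100 kb. The shares were 0.224% with −log10 q of at least 5 and 13.3% at 20 kb. The composite count of 5 summits fell to 0 within 25 bp and to 3 with C in place of N, the latter an alternative chosen after seeing the data. It was 5 within 100 bp and in whole peaks. The share of all summits was 6.28% in the main count, 3.66% within 25 bp and 2.99% with C. It rose to 8.87% within 100 bp and 10.5% in whole peaks. Of the 120 listed genes, 78 had a promoter peak, 68 with a 500 bp limit (25.8% of all genes), 84 with 3 kb (30.3%), 69 with −log10 q of at least 5 (21.0%) and 74 with a fold of at least 5 (23.5%). Single reads matter at this depth: 8 of the 13 peaks had the genome-wide background of 0.333 reads, and summits rest on as few as 6 reads. No paired analysis was possible because the immunoprecipitate and the input share only 1 replicate number and the results come from no test.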
